A study of Mus musculus with 8 samples.

Results

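Neutrophils carry their weapons in granules that are filled while the cells mature in bone marrow. Genes for azurophil granule enzymes are transcribed in the earliest granule-forming precursors, genes for specific granule proteins in later precursors, and the S100A8/S100A9 alarmin pair and the receptors of the mature cell also in circulating neutrophils. In a lung exposed to LPS, neutrophils enter from the blood, and some of these proteins, lipocalin 2 among them, can also be made by airway and alveolar epithelium. The genes described here are 10 such genes: the alarmins S100a8 and S100a9, the specific granule genes Lcn2, Ltf, Camp and Ngp, the azurophil granule genes Mpo and Elane, and the surface genes Ly6g and Csf3r. They were chosen by gene symbol from 24584 genes in the count table. All 10 were in the table, and all 10 passed the filter on low counts, as did 15706 genes in all.

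The samples were lung tissue of male ICR mice aged 6 to 8 weeks, an outbred stock that the labels give as wild type. Both groups received LPS from Escherichia coli O111:B4 at 5 mg/kg by intraperitoneal injection, and lungs were taken 12 h later. The LPS + Tan group (n = 4) was also given tangeretin, a polymethoxylated flavonoid of citrus peel, at 50 mg/kg by the same route 30 min before LPS, and the LPS group (n = 4) was not. No sample without LPS and no sample with tangeretin alone was analysed here, so the levels below are levels after LPS and not a response to it. The labels number the samples of a group without saying that each is a separate mouse, and the p-values measure only the spread between these samples.

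Each library held between 38895654 and 39931970 counts, and the mean correlation of a library with the others was between 0.981 and 0.985. Lung genes were high in every sample: Sftpc, the surfactant protein of alveolar type 2 cells, was at 4144 to 8616 FPKM, and Scgb1a1, the club cell secretoglobin, at 25876 to 38721 FPKM. No library stood apart over all genes. In CPM, LPS + Tan replicate 2 was at the lowest or highest level of all samples in 7 of the 10 genes. Elane is among the 7, although its few reads do not resolve the order of the samples. Calls that replicate 2 changes are given beside the main ones. Without replicate 2, 5.15% of tested genes were higher and 5.06% lower at an unadjusted p of 0.05, or 10.2% in all (1626 of 15917). Leaving out LPS + Tan replicate 4 instead gave 761 higher and 727 lower, near the 820 and 806 without replicate 2. List counts without replicate 4 are not given.

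Levels of these genes in the lung after LPS ranged from among the highest of all genes to a few reads in a sample. On the FPKM scale (fragments per kilobase of gene and library total), which divides by the gene length its authors used, Lcn2 had a mean level of 5475 FPKM over the 8 samples (range 4042 to 7279) and ranked 4 among all genes in the table. S100a9 followed at 4100 FPKM (3020 to 4832, rank 7) and S100a8 at 3977 FPKM (3085 to 4549, rank 9), and the ranges of these top members overlapped. Ngp, which encodes neutrophilic granule protein, was next at 371 FPKM (285 to 534), below every sample of S100a8. Csf3r at 42.2 FPKM, Ltf at 38.9 FPKM, Camp at 31.6 FPKM and Ly6g at 19.2 FPKM formed a lower tier in which each overlapped its neighbour. The azurophil granule genes were far below, with Mpo at 1.10 FPKM (0.614 to 1.99) and Elane at 0.328 FPKM (0.192 to 0.555), and neither overlapped its neighbour in the order. The order at the top depends on the length chosen. FPKM implies a length of 853 bases for Lcn2, 524 for S100a9 and 392 for S100a8, whereas the union of GENCODE M21 exons is 2623, 522 and 694 bases. Per kilobase of the latter, S100a9 was first at 4116, S100a8 next at 2247 and Lcn2 then at 1781, with Ngp below them at 352. Together the 10 genes took 0.822% to 1.14% of all counts in a sample. Their share was 0.952% ± 0.134 under LPS and 0.878% ± 0.00996 under LPS + Tan (SD, n = 4 each), and the ranges overlapped.

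The comparison of the LPS + Tan group with the LPS group asks whether tangeretin given before LPS went with a different level of these transcripts at 12 h. By edgeR's quasi-likelihood test, 0 of the 10 genes passed an unadjusted p of 0.05, beside 5.12% of all tested genes (804 of 15706), and 0 also passed it by DESeq2 and by limma-voom. The thresholds used by the study, that p with an absolute log2 fold change above 1, were passed by 0 of the 10 genes and by 0.649% of all tested genes. After Benjamini-Hochberg adjustment over all tested genes 0 of the 10 genes and 0% of all genes passed 0.05, and the lowest adjusted p of any gene was 0.497. DESeq2 had 35 genes past an adjusted p of 0.05 and edgeR without LPS + Tan replicate 4 had 1, with 0 of the 10 genes in either. In 0 of the 10 genes were all samples of one group above all samples of the other, which was so for 2.73% of tested genes. The log2 fold change was above 0 in 6 genes and below 0 in 4, with a median of 0.014 beside 0.0070 over all tested genes. Over all genes, 451 were higher and 353 lower in the LPS + Tan group at the unadjusted threshold, and 653 and 239 when libraries were scaled by total counts only. In bulk tissue, fewer neutrophils and less RNA per neutrophil cannot be told apart.

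**Figure D1:**
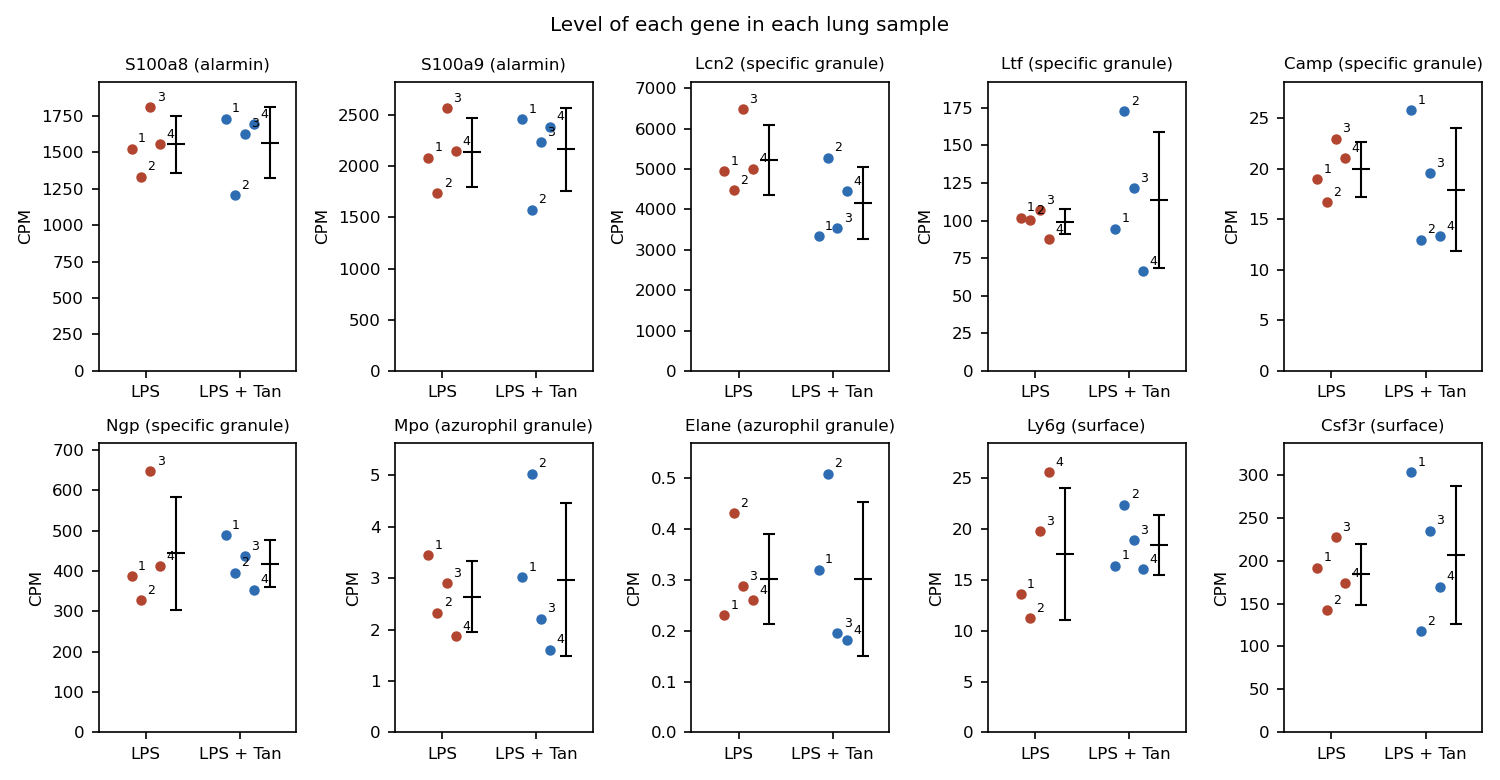
Level of each gene (CPM, vertical axis from 0) in the 4 LPS and 4 LPS + Tan samples, 1 panel per gene. Points are samples with their replicate number, and bars beside them are the group mean ± SD. In every panel the groups overlap, and LPS + Tan replicate 2 is the lowest sample for S100a8, S100a9, Camp and Csf3r and the highest for Ltf, Mpo and Elane.

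S100a8 and S100a9 encode the subunits of calprotectin, a calcium-binding complex that fills the neutrophil cytosol and acts as an alarmin outside the cell. In CPM, which divides a count by the scaled library total, S100a8 was at 1525, 1334, 1808 and 1555 CPM in LPS replicates 1 to 4 and at 1731, 1205, 1627 and 1695 CPM in LPS + Tan replicates 1 to 4. The lowest sample of all was LPS + Tan replicate 2 and the highest LPS replicate 3, with the other samples between them in both groups. The group means were 1556 ± 195 and 1565 ± 244 CPM (SD, n = 4 each). The log2 fold change was 0.0083 (SE 0.14, 95% interval -0.31 to 0.33, edgeR adjusted p = 0.998), which is an interval of 0.804 to 1.26 times the LPS level.

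S100a9 was at 2086, 1741, 2570 and 2149 CPM in the LPS samples and at 2458, 1576, 2236 and 2387 CPM in the LPS + Tan samples, in replicate order. Its samples fell in the same order as those of S100a8, from LPS + Tan replicate 2 up to LPS replicate 3 on this scale. Its log2 fold change was 0.019 (SE 0.17, 95% interval -0.36 to 0.40, edgeR adjusted p = 0.998). The ratio of S100a9 to S100a8 in FPKM lay between 0.977 and 1.063 in all samples, with means of 1.02 ± 0.0358 in the LPS group and 1.03 ± 0.0375 in the LPS + Tan group (SD, n = 4 each). With exon union lengths the same ratio was 1.74 to 1.89, as the lengths set its level but not its spread.

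The pair are neighbours on chromosome 3. In GRCm38, GENCODE M21 places S100a8 at chr3:90668978-90670035 on the + strand and S100a9 at chr3:90692632-90695721 on the - strand, 22596 bases apart with 0 protein-coding genes between them. Their upstream sequences are shown because the pair varied together more closely than any other members, and that of Ngp because this specific granule gene had the most C/EBP motifs in a single window. The windows are the 250 bases before the RefSeq start (GRCm38.p6), printed 5′ to 3′ on the gene's strand and shortened where GENCODE has an exon of the gene. Capitals mark matches on either strand to the C/EBP motif TTNNGNAA or the PU.1 motif GAGGAA, motifs of factors known from granulocyte genes.
S100a8 chr3:90668821-90668977 (+ strand): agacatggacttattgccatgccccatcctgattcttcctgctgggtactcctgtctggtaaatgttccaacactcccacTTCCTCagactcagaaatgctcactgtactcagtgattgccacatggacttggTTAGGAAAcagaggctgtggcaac
S100a9 chr3:90695722-90695971 (- strand): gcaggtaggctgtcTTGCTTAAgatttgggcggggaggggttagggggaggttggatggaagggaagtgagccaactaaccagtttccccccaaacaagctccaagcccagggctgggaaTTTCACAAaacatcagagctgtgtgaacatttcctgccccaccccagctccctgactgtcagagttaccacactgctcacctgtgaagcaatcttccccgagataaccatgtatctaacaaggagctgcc
Ngp chr9:110419558-110419746 (+ strand): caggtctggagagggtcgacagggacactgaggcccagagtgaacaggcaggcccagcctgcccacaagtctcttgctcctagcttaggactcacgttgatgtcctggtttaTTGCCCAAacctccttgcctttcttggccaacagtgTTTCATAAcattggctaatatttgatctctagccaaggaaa

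In the whole windows, S100a8 had the C/EBP motif at -117 and GAGGAA at -170 and -36 relative to the start, with TATAAA at -30. S100a9 had the C/EBP motif at -236 and -130, and Ngp at -138, -102 and -11. No matches to different motifs overlapped in these windows. Over the 10 genes, 6 had the C/EBP motif, beside 36.8% of the 32536 RefSeq windows of the same length, and 7 had GAGGAA, beside 23.4%. TATAAA was found upstream of 2 genes, S100a8 and Ly6g, and in 12.3% of all windows. A common form of the NF-kB motif was found in 0 of the 10 and in 1.40% of all windows. These are matches of letters and not binding sites.

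Lcn2 encodes lipocalin 2, which binds bacterial siderophores. It was at 4950, 4482, 6479 and 5014 CPM in the LPS samples and at 3347, 5285, 3531 and 4454 CPM in the LPS + Tan samples. LPS + Tan replicates 1, 3 and 4 were below all 4 LPS samples, and LPS + Tan replicate 2 was above all of them but replicate 3. Means were 5231 ± 865 CPM in the LPS group and 4154 ± 896 CPM in the LPS + Tan group (SD, n = 4 each). The log2 fold change of -0.33 (SE 0.18, 95% interval -0.74 to 0.071) had the lowest p of the 10 genes and did not pass (edgeR, unadjusted p = 0.0962, adjusted p = 0.924). Without LPS + Tan replicate 2 it was -0.47 (SE 0.17), with an unadjusted p of 0.0244 and an adjusted p of 0.400. Over the 18 alternative settings the log2 fold change ran from -0.47 to -0.21 and the adjusted p from 0.400 to 0.9999. Lcn2 alone took 0.514% ± 0.0738 of all counts in the LPS group and 0.420% ± 0.0824 in the LPS + Tan group (SD, n = 4 each).

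Unlike the S100 pair, Lcn2 and S100a8 did not keep a fixed ratio. Lcn2 over S100a8 in FPKM was 1.54 ± 0.0756 (SD, n = 4) in the LPS group. For the LPS + Tan samples it was 1.28 ± 0.510 (SD, n = 4), with the lowest value of all samples in replicate 1 at 0.889 and the highest in replicate 2 at 2.02. Within that group, the samples with more S100a8 in FPKM had less Lcn2. In CPM this did not hold throughout, as LPS + Tan replicate 4 was above replicate 3 for both genes. In the LPS group, the samples with more S100a8 had more Lcn2 on both scales.

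**Figure D2:**
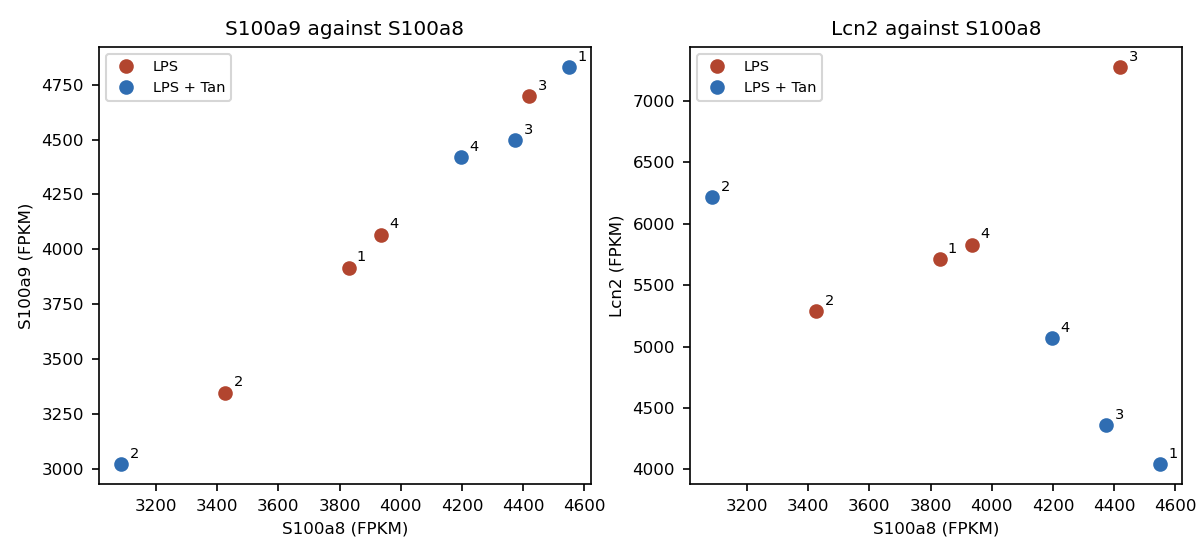
FPKM of S100a9 (left) and Lcn2 (right) against FPKM of S100a8 in each sample, numbered by replicate, with axes that do not start at 0. S100a9 rises with S100a8 along a single line for both groups, whereas for Lcn2 the LPS + Tan samples run from 6220.3 FPKM in replicate 2 at the lowest S100a8 level down to 4042 FPKM in replicate 1 at the highest.

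The other specific granule genes, Ltf, Camp and Ngp, did not pass the test either. Ltf, which encodes the iron-binding lactoferrin, was at 102, 100.3, 107 and 87.7 CPM in the LPS samples and at 94.6, 173, 121 and 66.2 CPM in the LPS + Tan samples. The LPS samples were close together, and the LPS + Tan samples lay on both sides of them, with replicate 2 highest and replicate 4 lowest. The group means were 99.3 ± 8.26 and 114 ± 45.4 CPM (SD, n = 4 each), and the log2 fold change was 0.20 (SE 0.24, 95% interval -0.33 to 0.73, edgeR adjusted p = 0.972).

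Camp, which encodes the antimicrobial peptide precursor cathelicidin, was at 19.0, 16.7, 22.9 and 21.0 CPM in the LPS samples and at 25.8, 12.97, 19.6 and 13.3 CPM in the LPS + Tan samples. LPS + Tan replicates 2 and 4 were below all LPS samples, and replicate 1 was above them. Its log2 fold change was -0.15 (SE 0.21, 95% interval -0.63 to 0.32, edgeR adjusted p = 0.978). Ngp, a cathelicidin relative, was at 387, 328, 647 and 413 CPM in the LPS samples and at 489, 396, 437 and 354 CPM in the LPS + Tan samples. LPS replicate 3 was high and the LPS + Tan samples all lay within the range of the LPS group. The Ngp log2 fold change was -0.083 (SE 0.20, 95% interval -0.52 to 0.36, edgeR adjusted p = 0.985). Camp, Ngp and Ltf lie on chromosome 9 of GRCm38 in that order, at chr9:109847379-109849617, chr9:110419747-110423012 and chr9:111019271-111042767, with 8 protein-coding genes between Camp and Ngp and 20 between Ngp and Ltf.

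Mpo encodes myeloperoxidase, the enzyme whose activity the study measured in lung as a sign of neutrophils. Its transcript was scarce, with 62 to 198 reads in a sample. Mpo was at 3.45, 2.33, 2.90 and 1.87 CPM in the LPS samples and at 3.03, 5.04, 2.21 and 1.61 CPM in the LPS + Tan samples. Both the highest and the lowest value were in the LPS + Tan group, in replicates 2 and 4. For those samples, 198 reads have an exact 95% Poisson interval of 171 to 228 and 62 reads one of 47.5 to 79.5, which cover counting error only. Between the groups, the log2 fold change of Mpo was 0.17 (SE 0.34, 95% interval -0.59 to 0.93, edgeR adjusted p = 0.982). An antisense gene, Gm11505, overlaps Mpo on the opposite strand in GENCODE M21, and since the sources used here do not say whether counting used strand, reads of the pair cannot be told apart. Gm11505 has no row of its own in the count table.

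Elane, the gene of neutrophil elastase, had 7 to 20 reads in a sample and 95 in all. It was at 0.230, 0.431, 0.287 and 0.259 CPM in the LPS samples and at 0.320, 0.509, 0.194 and 0.182 CPM in the LPS + Tan samples. LPS + Tan replicate 2 was again the highest sample and replicate 4 the lowest. The 20 reads of replicate 2 (exact Poisson interval 12.2 to 30.9) and the 7 of replicate 4 (2.81 to 14.4) have intervals that overlap, so at this depth the order of the samples is not resolved. Elane had a log2 fold change of -0.0047 (SE 0.43, 95% interval -0.96 to 0.95, edgeR adjusted p = 0.999), the widest interval of the 10 genes, from 0.514 to 1.93 times the LPS level.

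Neither surface gene passed the test. Ly6g, the antigen used to gate mouse neutrophils, was at 13.6, 11.2, 19.8 and 25.6 CPM in the LPS samples and at 16.4, 22.4, 18.9 and 16.1 CPM in the LPS + Tan samples, all of the latter within the LPS range. It had a log2 fold change of 0.071 (SE 0.24, 95% interval -0.45 to 0.60, edgeR adjusted p = 0.989). Ly6g belongs to a family of close paralogues, so its level is uncertain where reads could match more than 1 of them, which was not tested. Csf3r, the receptor for granulocyte colony-stimulating factor, was at 192, 143, 228 and 174 CPM in the LPS samples and at 303, 118, 235 and 170 CPM in the LPS + Tan samples. LPS + Tan replicate 1 was the highest and replicate 2 the lowest of all samples. The Csf3r log2 fold change was 0.16 (SE 0.26, 95% interval -0.41 to 0.74, edgeR adjusted p = 0.980).

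**Figure D3:**
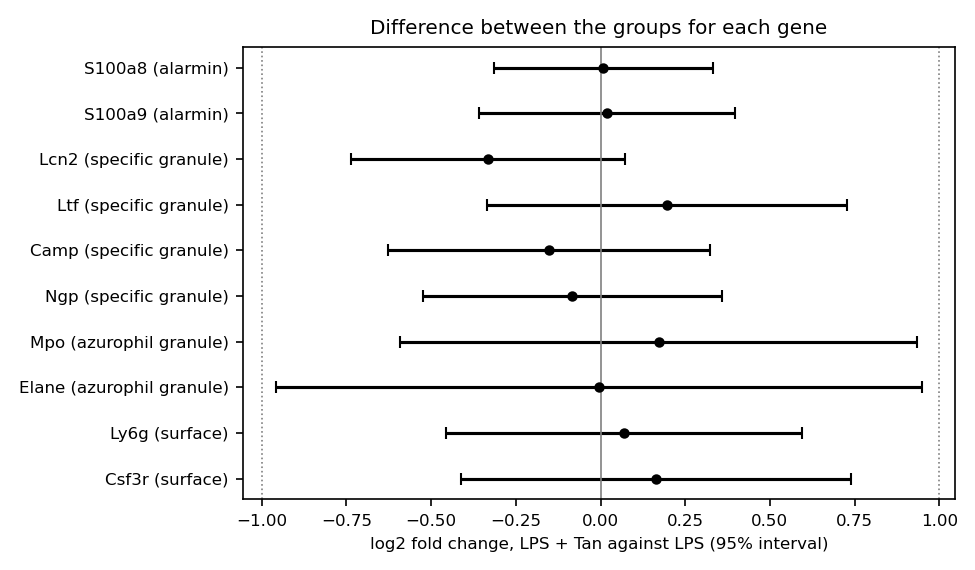
Log2 fold change of each gene, LPS + Tan against LPS (horizontal axis), from the edgeR fit on all 8 samples. Points are estimates, bars are 95% intervals, the solid line is at 0 and dotted lines are at -1 and 1. All 10 intervals contain 0 and all lie between -1 and 1, with the narrowest for S100a8 and the widest for Elane.

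All 10 genes varied from sample to sample more than the median tested gene, S100a8 only just. The SD of log2 CPM around the group means was 0.215 for S100a8 and 0.55 for Mpo, beside a median of 0.210. S100a8 was at percentile 51 of tested genes, and S100a9 and Lcn2 were at percentile 62. Mpo and Elane had few reads, so counting error is part of their spread. From the lowest to the highest sample, S100a9 spanned 1.63-fold and Mpo 3.12-fold. In CPM, LPS replicate 3 had the highest level of S100a8, S100a9, Lcn2 and Ngp. In FPKM, LPS + Tan replicate 1 was highest for S100a8 (4549) and S100a9 (4832). Also in CPM, LPS + Tan replicate 2 had S100a8, S100a9, Camp and Csf3r at the lowest level of all samples. It had Ltf, Mpo and Elane at the highest, although few reads leave the order for Elane unresolved. The genes thus did not go up and down as 1 block. In that sample the ratio of Ltf to Csf3r in FPKM was 2.48, against 0.528 to 1.19 in the other 7 samples, and the ratio of Ltf to Camp was 2.91, against 0.801 to 1.36.

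**Figure D4:**
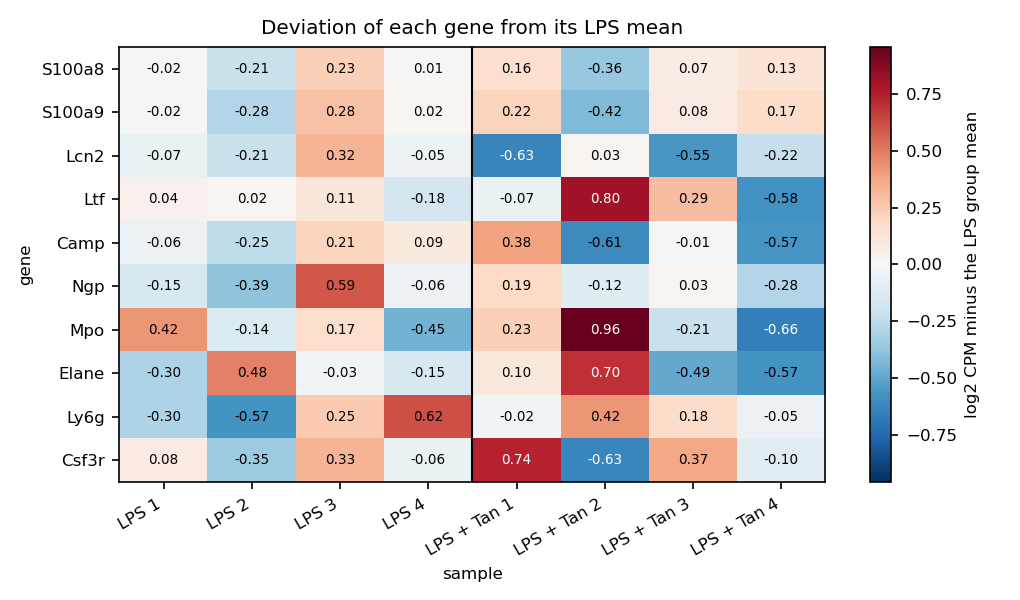
Deviation of log2 CPM of each gene (rows) in each sample (columns) from the mean of the 4 LPS samples, in colour and figures, with a line between the groups. LPS + Tan replicate 2 runs from 0.96 for Mpo to -0.63 for Csf3r, and LPS + Tan replicate 1 is highest for Csf3r at 0.74 and lowest for Lcn2 at -0.63.

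Correlations of log2 CPM over the 8 samples were computed for all 45 pairs, each with an exact two-sided permutation test. Both genes of a pair come from the same library and share its scaling. Of the 45 pairs, 26 were positive and 19 negative, with a median r of 0.10. Only S100a8 and S100a9 passed after adjustment over the 45 pairs. Their r was 0.999 (exact permutation p = 2.48e-05, the smallest it can give, adjusted p = 0.00112) and their rho 1 (p = 4.96e-05, adjusted p = 0.00223), and r was 0.997 without the pair of samples farthest from the median.

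Below that pair, 6 others had an unadjusted p of r under 0.05, and none of them passed adjustment. For rho alone, Camp and Ngp (rho = 0.79, exact permutation p = 0.0279) and Ngp and Csf3r (rho = 0.74, p = 0.0458) were also under 0.05. Neither passed adjustment (adjusted p = 0.324 for both). S100a8 and Csf3r had r = 0.84 and rho = 0.74 (exact permutation p = 0.00759 and 0.0458, adjusted p = 0.109 and 0.324). That r was 0.72 without LPS + Tan replicate 2 and 0.50 without LPS replicate 2 as well, the pair of samples farthest from the median. Camp and Csf3r had r = 0.84 and rho = 0.86 (exact permutation p = 0.00972 and 0.0107, adjusted p = 0.109 and 0.241), and r stayed at 0.85 without LPS + Tan replicates 2 and 4. When deviations from the group means were used, Camp and Csf3r passed adjustment as well (r = 0.93, exact permutation, adjusted p = 0.0329).

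Ltf and Mpo had r = 0.82 and rho = 0.64 (exact permutation p = 0.0160 and 0.0962, adjusted p = 0.144 and 0.361), but r was 0.14 without LPS + Tan replicates 2 and 4, and 0.60 without replicate 2 alone. The azurophil pair Mpo and Elane had r = 0.65 and rho = 0.64 (exact permutation p = 0.0790 and 0.0962, adjusted p = 0.301 and 0.361), and r was 0.0067 without those samples and 0.34 without replicate 2 alone. S100a8 was inversely related to Elane at r = -0.72 and rho = -0.40 (exact permutation p = 0.0422 and 0.327, adjusted p = 0.293 and 0.831), with r = -0.47 without LPS + Tan replicate 2 and a turned sign, r = 0.35, without LPS replicate 2 as well. These relations of the azurophil genes rest on the samples left out. Lcn2 had no unadjusted p under 0.05 with any other member, and its r ran from -0.46 with Csf3r to 0.27 with Ngp.

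**Figure D5:**
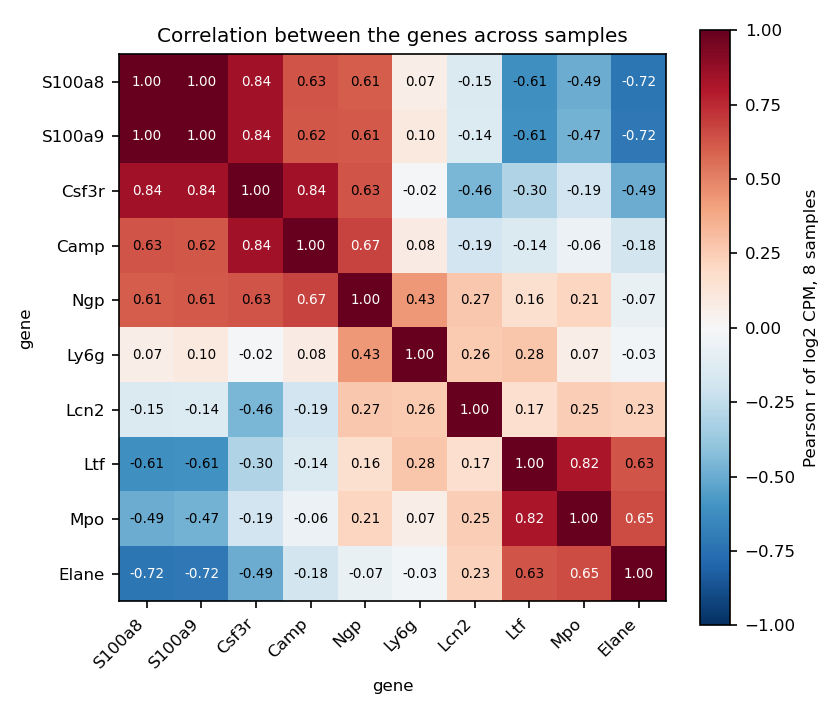
Pearson r of log2 CPM between each pair of the 10 genes over the 8 samples, in colour from -1 to 1 and in figures, ordered so that S100a8, S100a9, Csf3r, Camp and Ngp are together. S100a8 and S100a9 have r = 0.999 (shown rounded), Lcn2 has values from -0.46 to 0.27, and Ltf, Mpo and Elane are positive with one another and negative with S100a8.

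The genes outside the 10 whose log2 CPM was most like that of each were sought over all tested genes, as a description over 8 samples. S100a8 and S100a9 shared their nearest genes: Plxnc1, a semaphorin receptor, with r = 0.961 for both, then Ccnyl1 and Anxa1, the gene of annexin A1. Nearest to Lcn2 were Cstb (r = 0.992), which encodes the protease inhibitor cystatin B, Lyve1 (r = 0.991), a lymphatic endothelial hyaluronan receptor, and Adam9 (r = 0.981). Ngp was nearest to Rassf5 (r = 0.991), Apobr (r = 0.983) and Efhd2 (r = 0.974). Csf3r was nearest to Pphln1, Exo1 and Eno1b, Mpo to Psd4, Wdr81 and Btbd9, and Elane to Zc3h18, Zbtb33 and Gm11714. For Ltf they were Cnnm4, Zc3h12d and Ppip5k1, for Camp Rfc1, Commd10 and Pcdhb12, and for Ly6g Caskin2, LOC118568792 and Gm40453. These r values were picked as the highest among 15706 tested genes over only 8 samples.

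Other neutrophil genes were examined as 3 lists: azurophil granules and progenitors, specific and gelatinase granules, and surface receptors with genes of mature neutrophils. Of 59 listed genes, 57 were in the table and 53 were tested, and 0 of the 53 passed an unadjusted p of 0.05 by edgeR, beside 5.12% of all tested genes. The log2 fold change was above 0 in 22 and below 0 in 31, with a median of -0.062. Nearest to the threshold was Lrg1, which encodes a secreted leucine-rich glycoprotein, with a log2 fold change of -0.29 (SE 0.13, edgeR unadjusted p = 0.0560). Without LPS + Tan replicate 2, 1 of the 53 passed, Lrg1, beside 10.2% of all genes in that fit, and Lrg1 passed in 4 of 18 alternatives in all. By list, the 8 tested azurophil genes split 4 and 4 above and below 0, the 18 specific and gelatinase granule genes 8 and 10, and the 27 mature and surface genes 10 and 17.

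The groups overlapped in all 53 tested genes of these lists, beside 2.73% of tested genes that did not overlap. Hdc, histidine decarboxylase, had a log2 fold change of -0.27 (SE 0.15) and Mmp8, neutrophil collagenase, of -0.22 (SE 0.16). Those of Orm1 and the IgG receptor gene Fcgr4 were -0.34 (SE 0.25) and -0.22 (SE 0.14). The azurophil protease genes Ctsg and Prtn3 had log2 fold changes of 0.48 (SE 0.35) and -0.26 (SE 0.31), and Srgn, the granule proteoglycan serglycin, of -0.20 (SE 0.15). None of these passed an unadjusted p of 0.05 with all 8 samples. In 1 of 18 alternatives each, Hdc passed without LPS + Tan replicate 4 (-0.41, edgeR unadjusted p = 0.00648), Orm1 without LPS replicate 2 (-0.53, edgeR unadjusted p = 0.0282) and Mmp8 without LPS replicate 3 (-0.34, edgeR unadjusted p = 0.0281), with adjusted p no lower than 0.333.

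Of the other S100 and alarmin genes, 17 were tested, of which 0 were higher and 1 was lower in the LPS + Tan group, beside 2.87% and 2.25% of all tested genes. The gene that fell was Il1a, which encodes the alarmin interleukin-1α. Il1a was at 20.4, 14.1, 15.3 and 18.2 CPM in the LPS samples and 12.03, 13.1, 11.3 and 12.1 CPM in the LPS + Tan samples. The groups did not overlap, with the LPS + Tan samples lower, and the log2 fold change was -0.49 (SE 0.13, edgeR unadjusted p = 0.00355, adjusted p = 0.850). Its unadjusted p stayed under 0.05 in all 18 alternative settings, where the adjusted p ran from 0.139 to 0.9999. S100a4 and S100b, relatives of the calprotectin genes, had log2 fold changes of 0.61 (SE 0.31) and -0.73 (SE 0.44) and did not pass. When LPS + Tan replicate 2 was left out, S100a4 was higher by 0.80 on the log2 scale (edgeR unadjusted p = 0.0210, adjusted p = 0.390), and it also passed with DESeq2 (unadjusted p = 0.0494).

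Receptors for these alarmins and for lipocalin 2 gave 0 of 11 genes at an unadjusted p of 0.05 by edgeR in either direction, beside 5.12% of all tested genes. Cd36 and Ly96, the TLR4 co-receptor MD-2, had log2 fold changes of 0.39 (SE 0.20) and 0.30 (SE 0.16). The unadjusted p of Ly96 was under 0.05 in 4 of 18 alternatives, total counts, both FPKM scales and without LPS replicate 3, and that of Cd36 in 2, without LPS replicate 1 and without LPS + Tan replicate 2. That of Tlr4, which binds S100A8/S100A9 as well as LPS, was -0.16 (SE 0.097). Without LPS + Tan replicate 2, Cd36 was higher (0.55, edgeR unadjusted p = 0.00552, adjusted p = 0.284) and Tlr4 lower (-0.23, edgeR unadjusted p = 0.0384, adjusted p = 0.453), which is 1 of 11 each way beside 5.15% and 5.06% of all genes.

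Among colony-stimulating factors and regulators of granulocyte production, 15 genes were tested, with 0 higher and 1 lower, beside 2.87% and 2.25% of all tested genes. Il17a, a T cell cytokine upstream of granulocyte production, was at 0.563, 0.583, 0.392 and 1.04 CPM in the LPS samples. In the LPS + Tan samples Il17a was at 0, 0.280, 0.0972 and 0.468 CPM, and the groups overlapped. The log2 fold change was -1.61 (SE 0.72, edgeR unadjusted p = 0.0490), on 133 reads in all, and its unadjusted p was above 0.05 in 8 of 17 alternatives. Csf3, granulocyte colony-stimulating factor and ligand of Csf3r, was at 8.21, 10.3, 19.2 and 9.20 CPM in the LPS samples and at 2.53, 12.5, 5.27 and 4.13 CPM in the LPS + Tan samples. As with Lcn2, replicates 1, 3 and 4 of the LPS + Tan group were below all LPS samples and replicate 2 was not. The Csf3 log2 fold change was -0.94 (SE 0.45, edgeR unadjusted p = 0.0635), -1.56 without LPS + Tan replicate 2 (edgeR unadjusted p = 0.00131, adjusted p = 0.237) and -0.60 without LPS replicate 3 (edgeR unadjusted p = 0.210). Its unadjusted p was under 0.05 in 6 of 18 alternatives, which also included limma-voom, both FPKM scales and the replicate block. Without LPS + Tan replicate 2 the lower genes were 2 of 15, Csf3 and Stat3, beside 5.06% of all genes, and Il17a was not among them. Stat3 is named after its values were seen. Csf2, the granulocyte-macrophage factor, had a log2 fold change of -0.25 (SE 0.13) and passed only without LPS replicate 4 (-0.33, edgeR unadjusted p = 0.0321).

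Inhibitors of neutrophil proteases had 1 higher and 2 lower genes of 19 tested, beside 2.87% and 2.25% of all tested genes. Serpinb1c, a paralogue of the elastase inhibitor gene Serpinb1a, rose by 1.01 on the log2 scale (SE 0.32, edgeR unadjusted p = 0.0111), with 154 reads in all and no overlap between groups. Serpina1a, an α1-antitrypsin gene, fell by 1.33 (SE 0.44, edgeR unadjusted p = 0.0127) and Timp1, a metalloproteinase inhibitor, by 0.63 (SE 0.27, edgeR unadjusted p = 0.0410). Both serpins have near-identical copies whose reads may be split among them. Timp1 lost its unadjusted call in 7 of 18 alternatives and Serpina1a with limma-voom, and no gene of these lists passed after adjustment. In the fit without LPS + Tan replicate 2 the counts were 1 higher and 3 lower, beside 5.15% and 5.06%. The added gene was Serpina3n, named after its values were seen.

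Markers of other cells in the lung were read beside these values. Summed CPM overlapped between the groups for all 8 marker lists: 923 to 1272 in the LPS group and 1084 to 1419 in the LPS + Tan group for monocytes and macrophages, 20421 to 28676 and 18992 to 29287 for epithelium, and 1430 to 3460 and 1330 to 2183 for erythroid cells of blood left in the tissue. For platelets the overlap came from LPS + Tan replicate 2 alone, at 216, since the LPS samples were at 198 to 251 and the other LPS + Tan samples at 133 to 145. Most of that sum was Itgb3, at 164 to 218 CPM in the LPS and 113 to 177 CPM in the LPS + Tan samples. Of the 7 platelet markers, 6 had log2 fold changes below 0, and 1, Treml1, was above it (0.74). Pf4, named after its values were seen, was highest of all samples in LPS + Tan replicate 4, at 9.12 CPM. All 9 erythroid markers had log2 fold changes below 0, with a median of -0.27, and 0 passed an unadjusted p of 0.05. Unadjusted calls were 1 of 12 higher for monocytes and macrophages, 2 of 8 higher for endothelium, 2 of 7 lower for platelets and 2 of 6 lower for eosinophils, basophils and mast cells, with none among the 10 alveolar macrophage, 11 epithelial and 10 lymphocyte genes, beside 2.87% higher and 2.25% lower of all tested genes. Without LPS + Tan replicate 2 the counts in those lists were 1, 2, 2 and 3, with Pecam1 called in place of Kdr for endothelium (both named after their values were seen). Of the endothelial calls, Kdr was lost in 6 of 18 alternatives and Tek in 9, and of the platelet calls Itgb3 was lost in 1. Of the erythroid genes, 1 of 9 was lower without that library, where 5.15% of all genes were higher and 5.06% lower. No marker in the table was at 0 in every sample. The part of other cells and of retained blood in the levels of the 10 genes was not tested.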

How the data were processed

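RNA was measured by sequencing of 4 LPS and 4 LPS + Tan samples of lung. The authors deposited a table of raw counts per gene and a table of FPKM, in which each count is divided by gene length and by the sample's total. GRCm38 (mm10) was named in the submitters' processing notes, and for the aligner, annotation and counter the sources used here give no name. The labels and the study's methods name different RNA extraction and library kits. Columns of no sample numbered 0.

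Counts were filtered with filterByExpr, scaled by TMM and tested for all genes by the quasi-likelihood test of edgeR 4.0.16 in R 4.3.3, without covariates, with Benjamini-Hochberg adjustment over 15706 genes. CPM divides by the scaled library total of those genes. FPKM served for levels between genes. DESeq2 1.42.0, limma 3.58.1 (voom, and log2 of FPKM plus 1 or plus 0.1), other scalings and filters, a replicate block and leaving out each sample were alternatives. Settings without LPS + Tan replicate 2 for the lists and correlations, and the alternatives for genes outside the 10, were chosen after seeing the data. On simulated data, 85.5% of 200 genes changed 3-fold were recovered in this comparison of 15706 genes. Named genes were the 10 members, the 3 tested genes of lowest unadjusted p in each list, and the 3 genes of highest Pearson r with each member. A single gene that this rule names is not reported here. The members and lists were chosen with earlier results of these data known. Of 205 list entries, 201 were in the table.

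Gene positions came from GENCODE M21 (GRCm38) and upstream windows from RefSeq (GRCm38.p6), with all 10 symbols matched. In all 28 pairs, libraries differed by more than sampling noise.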

Additional observations from a re-analysis of the deposited data

Results flagged for a closer look

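In 38 groups of 4 samples examined, 1 had a sample far from the others, where chance would give about 1.9. The ratio of Mpo to Csf3r in FPKM, given in thousandths, was 77.9 in LPS + Tan replicate 2 and between 17.1 and 18.2 in the other 3 samples of that group. Its gap to the nearest sample was 0.983 of the whole range of the group. In the LPS group the same ratio was 26.3 ± 6.03 (SD, n = 4). That library had the highest Mpo and the lowest Csf3r level of all samples, with 198 reads of Mpo.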

How the results depend on the processing

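Every gene but Elane was tested in all 18 alternatives, and Elane in 17. No adjusted p of the 10 genes passed in any of them. Leaving out 1 sample at a time turned the sign of 8 genes, whose log2 fold changes then ran from -0.064 to 0.11 for S100a8, from -0.072 to 0.14 for S100a9, from -0.078 to 0.38 for Ltf, from -0.21 to 0.16 for Ngp, from -0.21 to 0.38 for Mpo, from -0.37 to 0.21 for Elane, from -0.097 to 0.31 for Ly6g and from -0.084 to 0.36 for Csf3r. Elane also turned sign with total counts only (0.034) and with limma on log2(FPKM + 1) (0.0035). The count of the 10 genes lower at an unadjusted p of 0.05 ran from 0 to 1 when samples were left out, the 1 being Lcn2 without LPS + Tan replicate 2. Over all genes, leaving out samples gave 268 to 820 higher and 212 to 806 lower, no filter gave 569 lower, and DESeq2 gave 572 higher and 511 lower, with 35 past adjustment. The log2(FPKM + 1) scale gave 644 higher and 276 lower. With deviations from the group means, 2 pairs of genes passed adjustment instead of 1. Each sample left out leaves 3 against 4. Counts over all genes rose from 451 higher and 353 lower without LPS + Tan replicate 2 or 4. They fell without LPS + Tan replicate 1 (268 and 212) or 3 (292 and 299). The cause of these changes was not tested. Depth limits Elane, with 7 to 20 reads in a sample.

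The replicate numbers do not pair the samples: correlations of deviations between samples of the same number were between -0.15 and 0.12, and 0 of the 4 LPS samples correlated best with their own number. With the replicate block, 397 genes were higher and 429 lower, 0 passed adjustment, and 0 of the 10 genes passed.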

Other observations

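Lyve1, whose levels followed those of Lcn2 over the samples, had a log2 fold change of -0.51 (edgeR unadjusted p = 0.0510), with a level of 2200 CPM in LPS + Tan replicate 2 and a mean of 1983 CPM over the 8 samples.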
